A study of Macaca mulatta with 43 samples.

Results

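Genes of calcium, cyclic AMP and protein kinase C signaling were examined in the medial prefrontal cortex of rhesus macaques that drank ethanol and of their controls. The members were chosen by name. A gene belonged to the set if a probeset carried its symbol alone in the platform's probe table and the symbol began with the names of the calmodulin-dependent kinases, calmodulin, calcineurin, the adenylyl cyclases, the phosphodiesterases, protein kinase C, protein kinase A, protein kinase G or the A-kinase anchoring proteins. This gave 71 of the 14132 genes with such a symbol, and the probeset with the highest mean over all arrays stood for each gene.

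RNA came from male rhesus macaques, 5 to 11 years of age, of a self-administration study, with tissue of Brodmann areas 24, 25 and 32 pooled for each animal and 1 Affymetrix rhesus array per animal. The 32 drinkers had open access to 4% (w/v) ethanol for 22 h per day over 1 year. The 11 controls are labelled as water controls and, by the study's methods, received a maltose dextran solution matched in calories, with water. The animals belonged to 4 cohorts, with 11 drinkers and no control in cohort 4, 8 drinkers and 5 controls in cohort 5, 8 and 4 in cohort 7a, and 5 and 2 in cohort 7b. Cohorts 4 and 5 were processed together and cohorts 7a and 7b together with another RNA kit, so cohort and processing cannot be told apart. In such bulk tissue, fewer cells of a type and less RNA per cell cannot be told apart either.

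Calcium that enters a neuron binds calmodulin, which switches on the calmodulin-dependent kinases and the phosphatase calcineurin. Adenylyl cyclases make cyclic AMP and phosphodiesterases break it down. Cyclic AMP frees the catalytic subunits of protein kinase A from their regulatory subunits, and anchoring proteins (AKAPs) hold the kinase at synapses, organelles or the nucleus. Protein kinase C responds to calcium and to the lipid diacylglycerol. In cortical neurons these pathways carry signals from receptors to synapses and to transcription, and acute ethanol has long been studied for its action on adenylyl cyclase and protein kinase C.

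The values were log2 intensities after robust multi-array averaging (RMA), and a difference between treatments is given on that log2 scale as ethanol minus control. Cohort was kept as a block in a linear model (limma) over all 43 arrays, and a gene is called higher or lower where its p-value, adjusted by the Benjamini-Hochberg method over all 24151 probesets tested, was under 0.05. Of the 71 members, 70 passed the filter on low values, and PDE6C, a catalytic subunit of the cone photoreceptor phosphodiesterase, lay under 3.5 on all 43 arrays. PDE6H, another cone subunit, passed although it lay under 3.5 on 34 arrays. The cell type of the tissue was checked by its markers. The neuronal genes SLC17A7, SYT1, STMN2 and ENO2 had mean values between 8.3 and 13.37, and the liver genes APOA1 and HP, which brain should lack, had means of 4.63 and 5.42.

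In the comparison with cohort as a block, CAMK2B, the beta subunit of calmodulin-dependent kinase II, had the smallest adjusted p of the members. It was 1.35-fold higher in drinkers. CAMK2N2, an inhibitor protein of the same kinase, was 1.17-fold lower. Among the phosphodiesterases for cyclic AMP, PDE4A, PDE4C and PDE7A were higher, whereas PDE4B was lower. Among the anchoring proteins, the nuclear AKAP8, AKAP8L and AKAP17A were higher, whereas AKAP5, which holds kinase A and calcineurin at the postsynaptic density, was lower. For PDE4C, PDE7A, AKAP8L and AKAP17A no other probeset of the gene was called. For CAMK2B, PDE4A, PDE4B and AKAP8 another was called in the same direction. No protein kinase C gene and no calcineurin gene was called by the probeset that stood for it, although other probesets of PRKCA, PRKCH and PPP3CB were called lower.

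In all, 13 members were called higher and 8 lower. The 21 called members were 30% of the 70 tested, while 33.3% of all probesets tested were called, 11.8% as higher and 21.5% as lower. The share of called members was therefore near the background of the array. Their median difference was 0.02, beside -0.04 over all probesets, and their median absolute difference was 0.1, the same as over all probesets. With each array centred on its median, 17 members were higher and 6 lower, and over all probesets 3895 were higher and 3687 lower, so the split of directions depends on the scaling, while the 21 members kept their sign. The called differences were small, from 1.06-fold to 1.35-fold. The other 49 members did not pass the test, which does not show that they were equal between the groups.

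**Figure D1:**
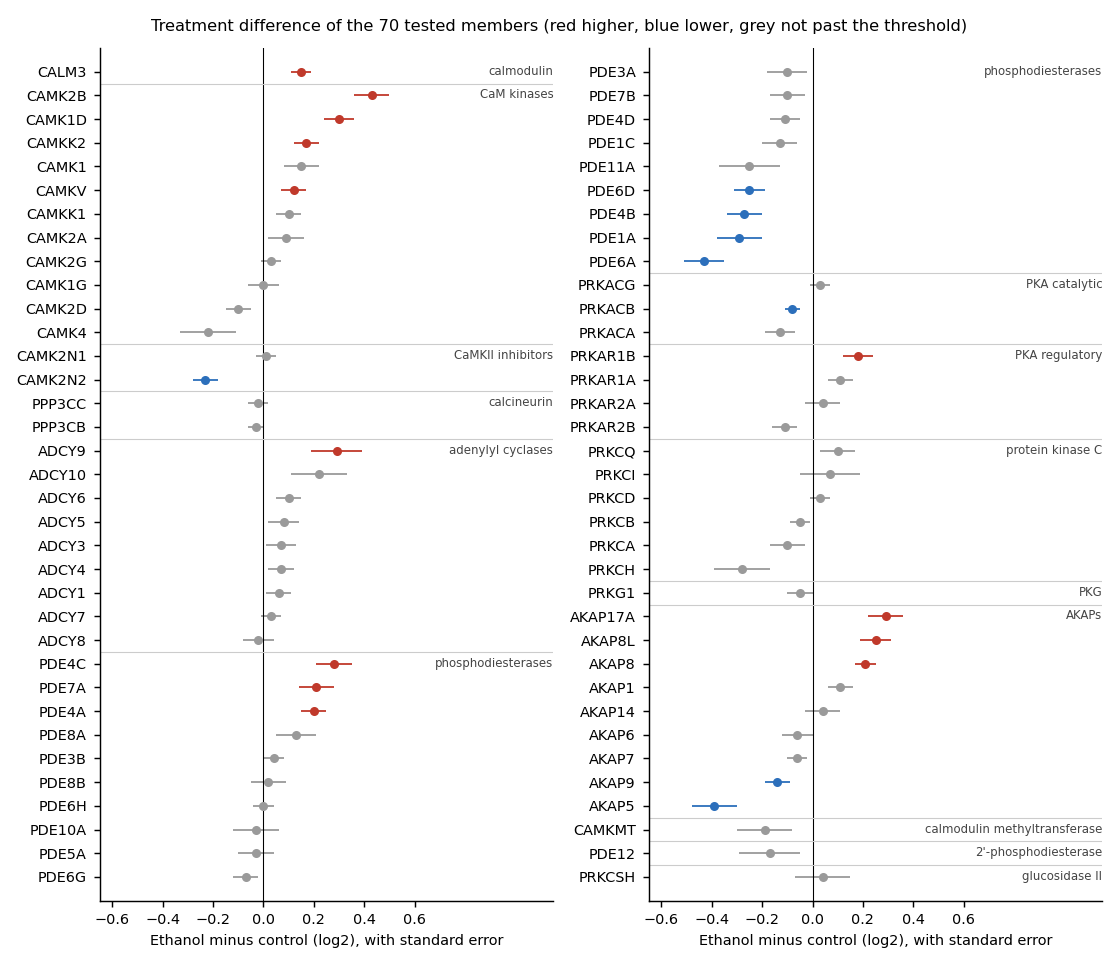
Ethanol minus control difference (log2, x axis) of each of the 70 tested members, grouped by role, from the linear model with cohort as a block; bars are the standard error. The 13 members called higher are red, the 8 called lower are blue, and the 49 others are grey; CAMK2B lies farthest right at 0.43 and PDE6A farthest left at -0.43.

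The treatment differences depended on the cohort. In cohort 5 no member passed the test, and 0% of all probesets did (2 members and 731 probesets had an unadjusted p under 0.05 in limma). The members' differences in cohort 5 ran from -0.25 to 0.32. In cohort 7a, 22 members were called, which is 31.4%, beside 30.9% of all probesets. In cohort 7b, 27 were called, which is 38.6%, beside 40.1% of all probesets. The direction was the same in each of the 15 members called in both cohorts, which were processed together. The matching share over all probesets was not computed, so nothing particular to the members is drawn from it. For the average of cohorts 7a and 7b, 20 members were higher and 11 lower, together 44.3% beside 49.1% of all probesets, of which 16.7% were higher and 32.4% lower. All 21 members called over all animals were among these 31.

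The difference between the treatment effects was tested directly, as the average of cohorts 7a and 7b minus cohort 5. It passed for 19 members (27.1%, beside 31.6% of all probesets), and for 18 of them the effect was larger in size in cohorts 7a and 7b. AKAP14, a small anchoring protein known from cilia and sperm, was the exception. Its difference was 0.32 in cohort 5 (adjusted p = 1) and -0.2 in cohorts 7a and 7b (adjusted p = 0.0593), so that neither passed, while the difference between them was -0.52 (adjusted p = 0.00251).

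**Figure D2:**
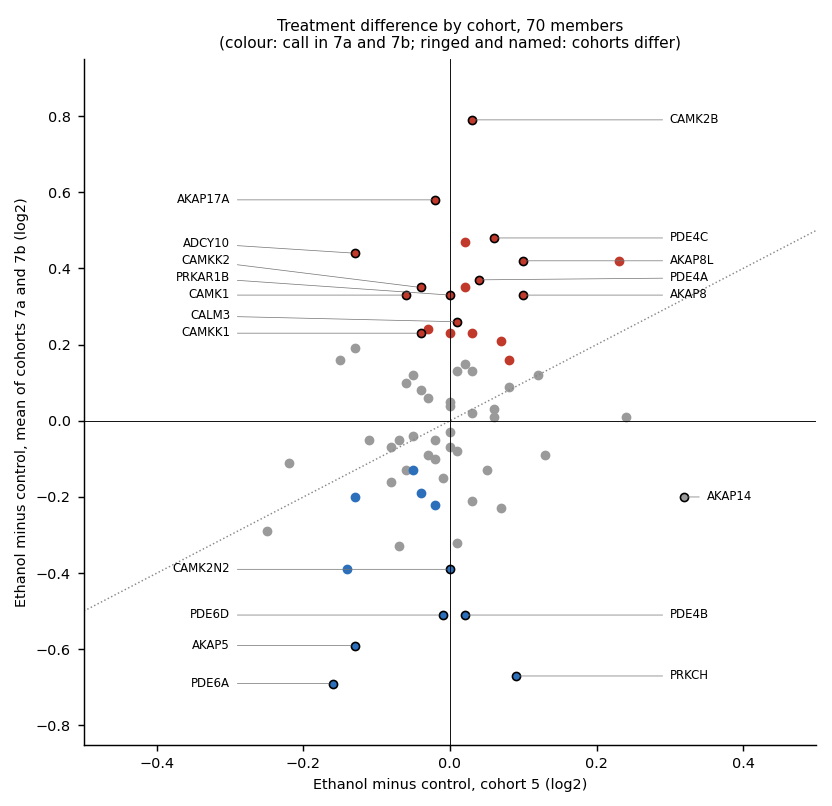
Treatment difference of each of the 70 members in cohort 5 (log2, x axis) against that averaged over cohorts 7a and 7b (log2, y axis), with the dotted line at equal values. Members called in cohorts 7a and 7b are red or blue, and the 19 for which the cohorts differed are ringed and named; the x values stay between -0.25 and 0.32, while CAMK2B reaches 0.79 on the y axis.

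A measure of RNA quality moved with the treatment in part of the cohorts. The array carries probesets at the 3′ and the 5′ end of beta-actin, and a larger 3′ minus 5′ value goes with more degraded or shorter RNA copies. In cohort 7a this value was 1.26 ± 0.21 (SD, n = 8) in drinkers and 0.82 ± 0.06 (n = 4) in controls, without overlap (two-sided exact permutation test, p = 0.00202, the smallest this design allows, and 0.0121 adjusted over the 6 tests made). In cohort 7b it was 1.1 ± 0.37 (n = 5) against 0.78 ± 0.04 (n = 2; exact permutation p = 0.286), and in cohort 5 it was 4.54 ± 0.2 (n = 8) against 4.5 ± 0.21 (n = 5; exact permutation p = 0.718). The same measure for GAPDH was higher in drinkers of cohort 7a by 0.18, which did not pass after adjustment (exact permutation p = 0.0283, adjusted 0.0849), lower by -0.14 in cohort 7b (exact permutation p = 0.524) and higher by 0.08 in cohort 5 (exact permutation p = 0.419). With the actin value as a covariate beside cohort, 9 members were called higher and 3 lower, 17.1% beside 15.6% of all probesets. With the RNA integrity number beside cohort, which leaves out 1 control of cohort 7b that has none, 3 were called higher and 2 lower, 7.14% beside 4.89%. With that number beside the processing batch as a block, no member was called and 0.762% of probesets were (15 members had an unadjusted p under 0.05 in limma).

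Of 27 cell type markers measured, 9 were called, 33.3% beside 33.3% of all probesets. Of 6 microglial markers, 3 were called lower in drinkers (CX3CR1, AIF1 and TYROBP) and none higher. CSF1R (0.07), C1QA (0.12) and C1QB (-0.13) were not called. The log2 of the summed level of the 6 ran from 9.91 to 10.39 in drinkers and from 10.09 to 10.65 in controls of cohort 7a. In cohort 7b it ran from 10.19 to 10.38 and from 10.36 to 10.43, so the groups overlapped in both cohorts. Of 4 astrocyte markers, GFAP was called higher, although its difference in cohort 7a was -0.01. The log2 sum of the 4 in cohort 7b ran from 14.57 to 14.69 in drinkers and from 14.1 to 14.15 in the 2 controls. In cohort 7a the sums overlapped, from 14.62 to 14.97 in drinkers and from 14.55 to 14.79 in controls. Of 4 neuronal markers SLC17A7 was higher, of 4 interneuron markers GAD2 was higher and VIP lower, and of 2 oligodendrocyte and 5 vessel markers none was called. GAD2 differed by 1.1 and VIP by -0.46, while GAD1 (-0.02) and PVALB (-0.24) were not called over all animals. In cohort 7b, with its 2 controls, the differences were 2.22 for GAD2, -0.96 for VIP, -0.11 for GAD1 and -1.53 for PVALB. Both liver genes were called lower, and the lowest mean of any marker measured was 4.04, for a vessel gene. Their part in the members' differences was not tested.

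Calmodulin is encoded by several genes, of which CALM3 was measured. In cohorts 7a and 7b its value ran from 10.8 to 11.13 with a median of 10.98 in drinkers, and from 10.54 to 10.88 with a median of 10.7 in controls. The pooled groups overlapped, although within each of the 2 cohorts every drinker lay above every control. The share of all probesets without overlap within a single cohort was not computed. Here and below such a split describes the values alone, and cohort 7b has only 2 controls. Over all animals the difference was 0.15 (SE 0.04, adjusted p = 0.00139). It was 0.01 in cohort 5 and 0.26 in cohorts 7a and 7b, and these differed (0.25, adjusted p = 0.00264). A second CALM3 probeset gave a difference of 0 (adjusted p = 0.983).

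Of the 11 calmodulin-dependent kinases and related proteins, 4 were called higher and none lower, 36.4% beside 33.3% of all probesets. Kinase II is a large assembly whose alpha and beta subunits predominate in forebrain neurons, and the beta subunit ties it to actin in dendritic spines. CAMK2B lay at 11.04 and 11.27 in the 2 controls of cohort 7b and at 12.17, 12.05, 12.19, 12.24 and 12.19 in its drinkers. In cohort 7a it lay at 12.03, 11.92, 11.89 and 11.68 in the controls, and between 12.34 and 12.58, with a median of 12.44, in the drinkers. All 13 drinkers of these cohorts were above all 6 controls.

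CAMK2B was the sole member higher without overlap over cohorts 7a and 7b, beside 2.24% of all probesets. The controls of cohort 7b were themselves below those of cohort 7a. In cohort 5, drinkers (11.2 to 11.45, median 11.32) and controls (11.22 to 11.33, median 11.28) overlapped. The difference was 0.03 in cohort 5, 0.57 in cohort 7a (adjusted p = 3.67e-09) and 1.01 in cohort 7b (adjusted p = 2.85e-12), and the cohorts differed by 0.75 (adjusted p = 1.62e-09). Over all animals it was 0.43 (SE 0.07, adjusted p = 2.98e-05). It was 0.39 with the actin value as a covariate (adjusted p = 0.00145) and 0.19 with batch and integrity number (adjusted p = 0.103). Of its other probesets, 2 were also called higher, by 0.2 and 0.28, and the dimmest was not called (-0.03).

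The other subunits of kinase II behaved differently in the probeset that stood for them. CAMK2A, the alpha subunit, had a difference of 0.09 (SE 0.07, adjusted p = 0.287). Its value in drinkers was 1.55 higher in cohorts 7a and 7b than in cohorts 4 and 5, the largest such shift among the members, and without a block its difference was -0.14. CAMK2D differed by -0.1 (adjusted p = 0.128), although without control 12 of cohort 5 (animals are numbered as in the labels) it was called as lower (adjusted p = 0.0484). CAMK2G differed by 0.03 (adjusted p = 0.576), yet its 2 other probesets were called higher, by 0.36 and 0.56.

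Of the 7 genes of this group outside kinase II, 3 were called, all higher, where 33.3% of all probesets were called. CAMKK2, which phosphorylates kinases I and IV and the energy sensor AMPK, was 0.17 higher (SE 0.05, adjusted p = 0.015), with -0.04 in cohort 5 and 0.35 in cohorts 7a and 7b. In cohort 7b its drinkers ran from 12.15 to 12.44 and its controls from 11.84 to 11.97 without overlap, whereas in cohort 7a the groups overlapped. With batch and integrity number its difference changed sign, to -0.02. CAMK1D, a kinase I isoform, was 0.3 higher (SE 0.06, adjusted p = 0.000416). It was the called member with the largest difference in cohort 5 (0.23, adjusted p = 1), and in cohort 7a the value was 0.21 (adjusted p = 0.0975). CAMKV, a kinase-like protein of synaptic vesicles without catalytic activity, was 0.12 higher (adjusted p = 0.0469). CAMKK2 and CAMKV were outside the rule for named genes and are given because they were called.

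The remaining genes of this group were CAMK1 (0.15, adjusted p = 0.0663), CAMKK1 (0.1), CAMK1G (0) and the nuclear kinase CAMK4 (-0.22, adjusted p = 0.107). CAMK1 and CAMKK1 were called in cohorts 7a and 7b, at 0.33 and 0.23, and for both the difference from cohort 5 passed (adjusted p = 0.0156 and 0.0303). CAMKMT, which methylates calmodulin and is no kinase, differed by -0.19 (adjusted p = 0.202).

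The 2 inhibitors of kinase II differed from each other. CAMK2N2 lay at 7.32, 7.37, 7.3 and 7.42 in the controls of cohort 7a and between 6.72 and 7.11, with a median of 6.93, in its drinkers. In cohort 7b it lay at 7.28 and 7.16 in the controls and at 6.89, 6.88, 6.64, 6.91 and 6.9 in the drinkers. All drinkers of these cohorts were below all controls. It was 1 of 2 members lower without overlap there, with PDE6A, beside 2.57% of all probesets. The difference was 0 in cohort 5 and -0.39 in cohorts 7a and 7b, and these differed by -0.39 (adjusted p = 0.000121). Over all animals it was -0.23 (SE 0.05, adjusted p = 0.000443), and -0.16 with batch and integrity number (adjusted p = 0.0795). CAMK2N1 differed by 0.01 (SE 0.04, adjusted p = 0.823).

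**Figure D3:**
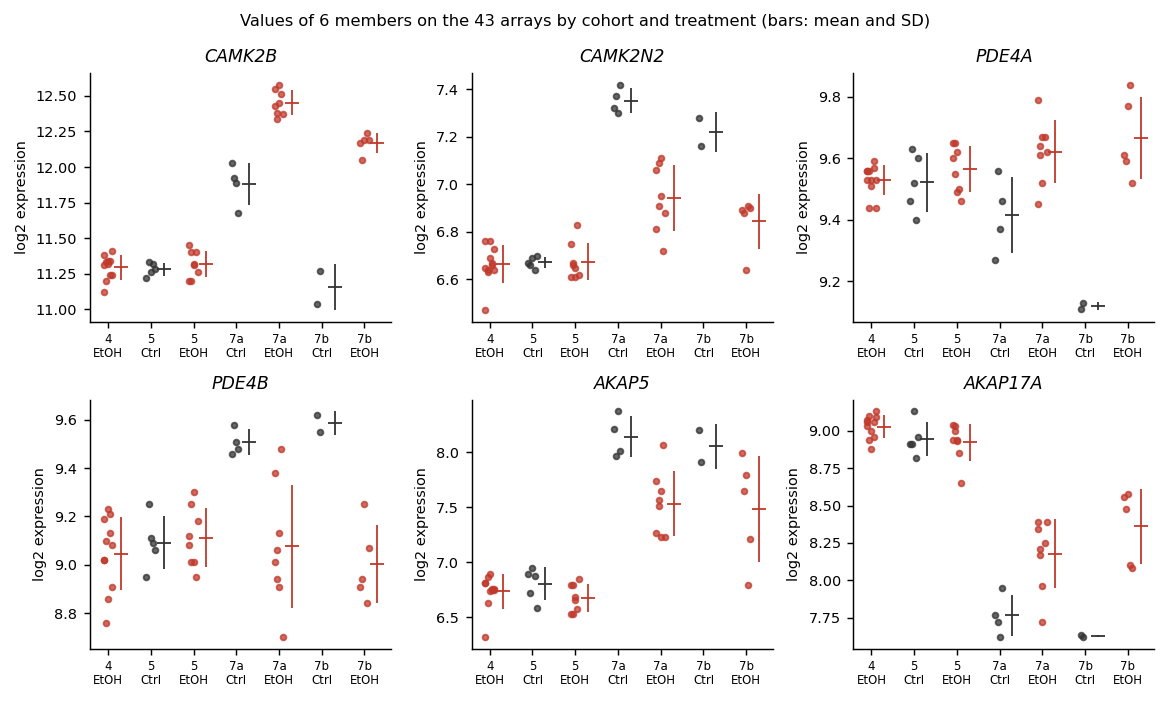
Log2 expression (y axis) of 6 members on each of the 43 arrays, by cohort and treatment (x axis), with drinkers in red and controls in black; the bars beside the points are the mean and SD of the group. For CAMK2B and CAMK2N2 the drinkers and controls of cohorts 7a and 7b do not overlap, whereas in cohort 5 the groups overlap for all 6 genes.

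Calcineurin, the calcium-dependent phosphatase, was represented by 2 catalytic subunits. PPP3CB differed by -0.03 (SE 0.03, adjusted p = 0.529) and PPP3CC by -0.02 (SE 0.04, adjusted p = 0.715). PPP3CC was called in cohort 7b, at -0.27 (adjusted p = 0.0137), and a further PPP3CB probeset was called lower over all animals, by -0.22.

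Of the 9 adenylyl cyclases ADCY9 alone was called, 11.1% beside 33.3% of all probesets. It ran from 7.79 to 8.71 with a median of 8.22 in the drinkers of cohorts 7a and 7b, and from 7.44 to 8.21 with a median of 7.74 in the controls. The groups overlapped, and in cohort 5 the medians were 8.22 and 8.05. The difference was 0.29 (SE 0.1, adjusted p = 0.0221). Without control 25 of cohort 7a the adjusted p was 0.069, the highest on leaving out 1 animal, and the call was also lost without control 27 of cohort 7a or control 37 of cohort 7b. Its second, dimmer probeset gave -0.08 (adjusted p = 0.279).

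The other 8 cyclases differed by -0.02 (ADCY8) to 0.22 (ADCY10) and were not called, among them ADCY1 (0.06, adjusted p = 0.377), which calmodulin activates. The second ADCY5 probeset was called higher, by 0.29 (adjusted p = 0.00351), where the first gave 0.08. In cohort 7b ADCY1, ADCY5 and ADCY6 were called higher, at 0.34, 0.54 and 0.47, while their differences in cohort 7a were -0.04, -0.08 and -0.06. In cohort 7a ADCY10, the soluble cyclase that bicarbonate activates, was called higher at 0.57 (adjusted p = 0.00567), and its effect differed from cohort 5 by 0.57 (adjusted p = 0.0252).

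Of the 19 phosphodiesterases tested, 3 were called higher and 4 lower, 36.8% beside 33.3% of all probesets. Their median difference was -0.07. The PDE4 family, which hydrolyses cyclic AMP and is the target of rolipram, had members in both directions. PDE4A ran from 9.45 to 9.84 with a median of 9.62 in the drinkers of cohorts 7a and 7b, and from 9.11 to 9.56 with a median of 9.32 in the controls. In cohort 7b all 5 drinkers, from 9.52, were above both controls, at 9.11 and 9.13, and in cohort 7a the groups overlapped. The difference over all animals was 0.2 (SE 0.05, adjusted p = 0.000859), with 0.04 in cohort 5 and 0.37 in cohorts 7a and 7b. Of its 4 other probesets 3 were called higher, by 0.28 to 0.52.

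PDE4C was higher by 0.28 (SE 0.07, adjusted p = 0.00136), with medians of 7.06 in drinkers and 6.59 in controls of cohorts 7a and 7b, although the groups overlapped. Its second probeset gave -0.04 (adjusted p = 0.697). PDE4B ran from 8.7 to 9.48 in the drinkers of these cohorts, with a median of 9.01, and from 9.46 to 9.62 in the controls, with a median of 9.53. The overlap came from a single drinker of cohort 7a at 9.48. The difference was -0.27 (SE 0.07, adjusted p = 0.00311), with 0.02 in cohort 5 and -0.51 in cohorts 7a and 7b, and a second probeset was lower by -0.36 (adjusted p = 0.00197). With the actin value as a covariate the PDE4B difference was -0.15 and the call was lost (adjusted p = 0.132). PDE4D differed by -0.11 (adjusted p = 0.141). PDE4B did not meet the rule for named genes and is given because it was called.

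PDE7A, another phosphodiesterase for cyclic AMP, was higher by 0.21 (SE 0.07, adjusted p = 0.0138), with medians of 7.85 and 7.45 in drinkers and controls of cohorts 7a and 7b, which overlapped. PDE1A, which calcium and calmodulin activate, was lower by -0.29 (SE 0.09, adjusted p = 0.0132). In cohorts 7a and 7b its drinkers ran from 8.27 to 9.5 with a median of 8.71, overlapping controls from 8.94 to 9.58 with a median of 9.18. Of its 4 other probesets 3 were called lower, by -0.47 to -0.59. With the actin value as a covariate its difference shrank to -0.05, and with batch and integrity number to -0.01.

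PDE6A and PDE6D belong by name to the retinal phosphodiesterase. PDE6A is its rod catalytic subunit, and PDE6D is widely expressed and carries prenylated proteins between membranes. PDE6A lay at 5.93, 6.17, 6.06 and 5.97 in the controls of cohort 7a and at 6.34 and 6.46 in those of cohort 7b. Its drinkers ran from 4.98 to 5.89 in cohort 7a and from 5.3 to 5.92 in cohort 7b, all below the controls. The difference was -0.43 (SE 0.08, adjusted p = 0.000146), the largest fall among the members, and a second probeset gave -0.06 (adjusted p = 0.286). PDE6D was lower by -0.25 (SE 0.06, adjusted p = 0.000858), with -0.26 in cohort 7a and -0.75 in cohort 7b. Its controls of cohort 7b, at 9.35 and 9.63, were above all 5 drinkers, whose highest value was 8.95. Its second probeset was lower by -0.23 (adjusted p = 0.00182).

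The other 12 phosphodiesterases tested were not called. They ran from -0.25 (PDE11A, adjusted p = 0.0967) to 0.13 (PDE8A), and included PDE10A, the enzyme that marks striatal projection neurons, at -0.03 (SE 0.09, adjusted p = 0.824). PDE12, which by name matched the set but degrades oligoadenylates and mitochondrial poly(A) tails, differed by -0.17 (adjusted p = 0.276).

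Of the 7 protein kinase A subunits, 1 was called lower and 1 higher, where 33.3% of all probesets were called. PRKACB, a catalytic subunit, ran from 12.77 to 13.01 with a median of 12.88 in drinkers of cohorts 7a and 7b, and from 12.86 to 13.09 with a median of 13.01 in controls, with overlap. Its difference was -0.08 (SE 0.03, adjusted p = 0.031), and the call was lost without control 26 of cohort 7a or either control of cohort 7b, with adjusted p up to 0.0852. Its 2 other probesets were lower too, by -0.2 and -0.48. PRKACA, the other main catalytic subunit, differed by -0.13 (adjusted p = 0.0856), and the testis-type PRKACG by 0.03.

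Among the regulatory subunits, PRKAR1B, a form enriched in brain, was higher by 0.18 (SE 0.06, adjusted p = 0.0219). Its drinkers and controls of cohorts 7a and 7b had medians of 8.69 and 8.38 and overlapped, and its difference in cohort 5 was 0. The adjusted p reached 0.0831 without control 28 of cohort 7a, and the call was also lost without either control of cohort 7b. Without a block the difference was -0.02 (adjusted p = 0.967). PRKAR1A differed by 0.11 (adjusted p = 0.104) in its brighter probeset, which was called without control 28 of cohort 7a (adjusted p = 0.023), and by -0.35 (adjusted p = 0.00743) in its dimmer one. PRKAR2A differed by 0.04, and PRKAR2B, the main neuronal regulatory subunit of type II, by -0.11 (adjusted p = 0.054).

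None of the 6 protein kinase C genes was called over all animals by its brightest probeset. PRKCA and PRKCB, classical forms that calcium and diacylglycerol activate, differed by -0.1 (SE 0.07, adjusted p = 0.3) and -0.05 (SE 0.04, adjusted p = 0.311). A dimmer PRKCA probeset was lower by -0.16 (adjusted p = 0.0376). PRKCD, PRKCI and PRKCQ differed by 0.03, 0.07 and 0.1. PRKCH, a form that needs no calcium, was closest to the threshold at -0.28 (SE 0.11, adjusted p = 0.051), and its second probeset was called lower, by -0.33 (adjusted p = 0.00692). It ran from 4.98 to 6.55 with a median of 6.02 in the drinkers of cohorts 7a and 7b and from 6.07 to 6.88 with a median of 6.63 in the controls. The groups overlapped there, but within cohort 7b all 5 drinkers, up to 6.32, were below both controls, from 6.58. No share over all probesets was computed for such a split. The difference was -0.99 in cohort 7b (adjusted p = 0.000349), -0.34 in cohort 7a (adjusted p = 0.103) and 0.09 in cohort 5, and cohorts 7a and 7b differed from cohort 5 (-0.76, adjusted p = 0.00351). PRKCH was chosen after its values were seen. PRKG1, the kinase that cyclic GMP activates, differed by -0.05 (adjusted p = 0.461), and PRKCSH, the beta subunit of glucosidase II and no kinase C, by 0.04 (adjusted p = 0.832).

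Of the 9 anchoring proteins, 3 were called higher and 2 lower, 55.6% beside 33.3% of all probesets. A share over so few genes was not tested. AKAP5 ran from 6.79 to 8.07 with a median of 7.57 in the drinkers of cohorts 7a and 7b, and from 7.91 to 8.37 with a median of 8.11 in the controls. The groups overlapped, and in cohort 5 the medians were 6.67 and 6.88. The difference was -0.39 (SE 0.09, adjusted p = 0.00116), with -0.61 in cohort 7a and -0.57 in cohort 7b. With the actin value as a covariate it was -0.18 and not called (adjusted p = 0.0857). AKAP9, a large scaffold of the Golgi and centrosome, was lower by -0.14 (SE 0.05, adjusted p = 0.0444), and this call was lost in 9 of the 16 fits without 1 animal, with adjusted p up to 0.111 without control 38 of cohort 7b.

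AKAP17A, AKAP8 and AKAP8L were the anchoring proteins called higher over all animals. AKAP17A, a splicing-related protein, ran from 7.72 to 8.58 with a median of 8.25 in the drinkers of cohorts 7a and 7b, and from 7.62 to 7.95 with a median of 7.67 in the controls. A drinker of cohort 7a at 7.72 gave the overlap on the low side. The difference was 0.29 (SE 0.07, adjusted p = 0.0021), and the separate values were 0.74 for cohort 7b, 0.42 for cohort 7a and -0.02 for cohort 5. Its 2 other probesets gave 0.01 and 0, and neither was called. AKAP8, which binds chromatin, was higher by 0.21 (SE 0.04, adjusted p = 0.000237). Its drinkers in cohort 7b, from 7.55, were above both controls, up to 7.24, and its second probeset was higher by 0.16 (adjusted p = 0.0407). AKAP8L, its homologue, was higher by 0.25 (SE 0.06, adjusted p = 0.000719), and none of its 3 other probesets was called. AKAP1 of the mitochondrial surface (0.11, adjusted p = 0.0781), AKAP6 of the nuclear envelope (-0.06), AKAP7 (-0.06) and AKAP14 (0.04) were not called. AKAP1 was called in cohorts 7a and 7b, at 0.16 (adjusted p = 0.0488), and its second probeset was higher over all animals, by 0.22 (adjusted p = 0.002). The 2 other AKAP7 probesets were lower, by -0.3 and -0.34.

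The probesets of a gene were compared more widely, because 43 members had several. Of the 21 called members 16 had others that were tested. In 9 of these all other probesets had the same sign, in 7 at least 1 other was called in the same direction, and in none was another called in the opposite one. Among 27 uncalled members with several, 11 had another probeset called in the direction of the first and 2 had one called in the other direction, PRKAR1A and PDE8B. Counted by probeset, 13 of the 29 others of called members were called. Of the 45 others of uncalled members, 14 were called in the direction of the first and 2 in the other. Over all probesets 33.3% were called, and whether these shares differ was not tested. Where the probeset with the second highest mean stood for the 43 members that had one, 8 members were called higher and 12 lower, 28.6% beside 33.3% of all probesets. Of the 16 called members with such a probeset, 7 were called again in the same direction and 13 had the same sign.

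**Figure D4:**
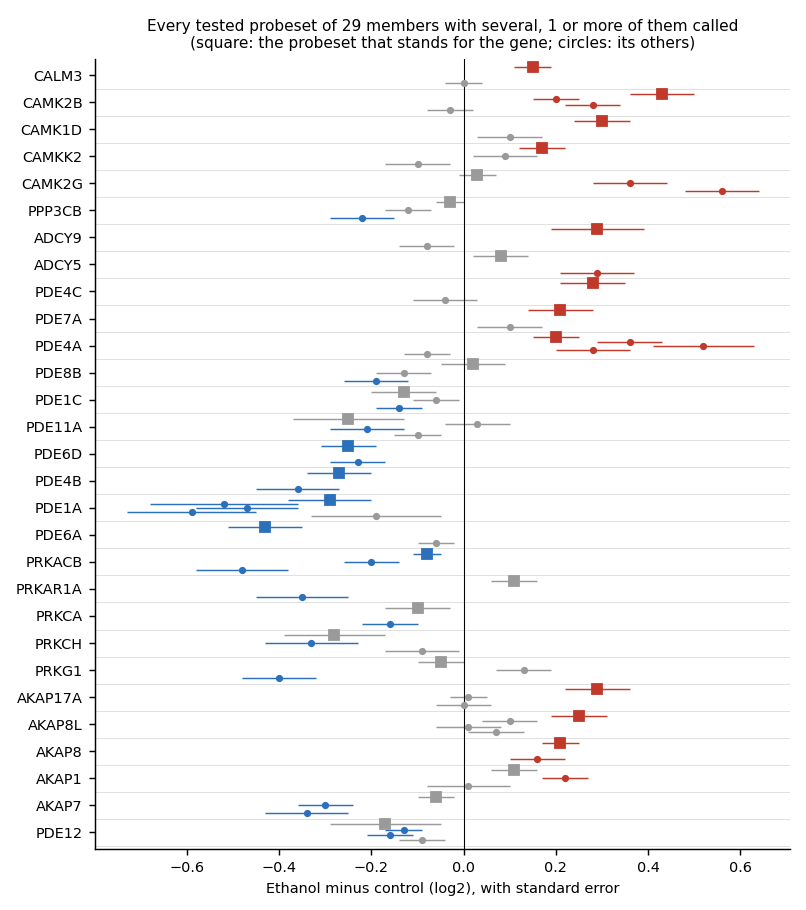
Ethanol minus control difference (log2, x axis, with standard error) of every tested probeset of the 29 members that had several and at least 1 called. Squares stand for the probeset with the highest mean and circles for the others, red if called higher, blue if called lower and grey if not called; PDE4A and PDE1A show several probesets on 1 side, while CAMK2G has an uncalled square and both circles called higher.

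Fewer members were called when batch or RNA quality entered the model. With the processing batch as a block, 9 members were called higher and 5 lower, 20% beside 22.7% of all probesets. These 14 were all among the 21. Without any block 3 were higher and 3 lower, 8.57% beside 16.2%. With the actin value as a covariate the median called member kept 0.84 of its difference and each kept its sign. With batch and integrity number the median was 0.58 of the difference, 20 of 21 kept their sign, and the lowest adjusted p among the members was 0.0795. Within cohorts 7a and 7b alone, batch and integrity number gave 7 members higher and 3 lower, 14.3% beside 13.4% of all probesets. This alternative was added after the data were seen. Of the 21 called members 8 were called in it in the same direction. ADCY10, which had its lowest adjusted p among the members, was not called in the main fit.

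**Figure D5:**
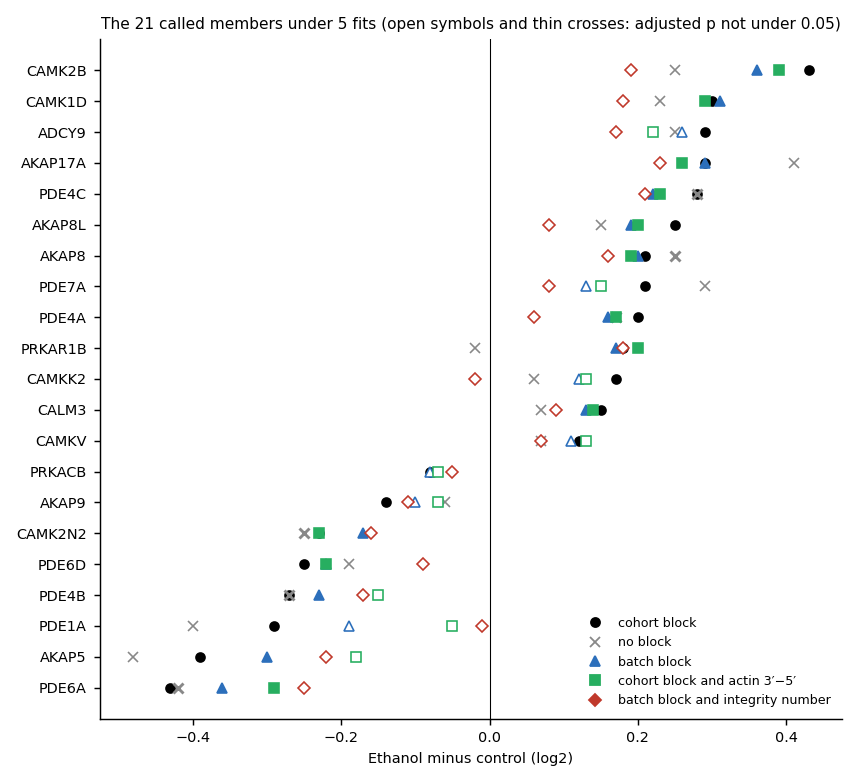
Ethanol minus control difference (log2, x axis) of the 21 called members under 5 fits, by symbol; filled symbols and thick crosses have an adjusted p under 0.05. With batch and integrity number in the model every symbol is open, CAMK2B lies at 0.19 instead of 0.43, and CAMKK2 crosses 0 to -0.02.

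Genes that work with the members were taken from a list of 56 pathway partners, of which 46 had a probeset that was tested. Of these, 15 were called higher and 11 lower, 56.5% beside 33.3% of all probesets. The list was drawn up with earlier results of these data known, and nothing particular to it is drawn from that share. The counts by group of partners below stand beside the same 33.3% of all probesets, 11.8% higher and 21.5% lower. No group was tested as a set. With the integrity number beside cohort 3 partners were called higher and 0 lower, and with batch and integrity number 2 and 0. Each partner given here and below as lower therefore lost its call in both fits, and so did most of those given as higher. Among the PKA inhibitors and effectors of cyclic AMP 4 of 6 were lower. PKIA, PKIB and PKIG, small proteins that block the catalytic subunit of kinase A, differed by -0.17, -0.45 and -0.13, and RAPGEF4, a guanine nucleotide exchange factor that cyclic AMP activates, by -0.21. Its relative RAPGEF3 was higher, by 0.21.

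Among 11 transcription regulators 4 were higher and 3 lower, 63.6% beside 33.3% of all probesets. The CREB coactivators CRTC1, CRTC2 and CRTC3 were higher, by 0.22, 0.13 and 0.24, whereas the factors CREB1, CREM and ATF1 were lower, by -0.16, -0.21 and -0.21. NFATC3, which calcineurin sends to the nucleus, was higher by 0.38 (adjusted p = 3.96e-06). CREBBP (-0.06), NFATC1 (0), NFATC2 (-0.1) and NFATC4 (-0.06) were not called. The calcineurin inhibitor CABIN1 was higher by 0.27, and RCAN1 to RCAN3 were not called. Of 6 diacylglycerol kinases, which end signaling to kinase C, DGKA, DGKG and DGKZ were higher, by 0.3, 0.39 and 0.26, and DGKB was lower, by -0.25.

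Of 8 genes of calcium release and pumping, the plasma membrane pump ATP2B3 was higher by 0.51 and the ryanodine receptor RYR2 by 0.19, and the inositol trisphosphate receptor ITPR1 was lower by -0.22. Of 5 phospholipases C, PLCG1 (0.29) and PLCB3 (0.13) were higher and PLCG2 (-0.17) lower. Of 5 substrates that bind calmodulin or are phosphorylated by kinase C, neurogranin (NRGN, 0.24) and ADD1 (0.1) were higher and ADD3 (-0.16) lower. PPP1R1B, the phosphatase inhibitor DARPP-32, differed by -0.03 (adjusted p = 0.777). No partner was called in cohort 5, where 2 had an unadjusted p under 0.05 in limma, and 18 of 46 differed between cohorts 7a and 7b and cohort 5 (39.1%, beside 31.6% of all probesets).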

How the data were processed

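Total RNA of 43 animals was hybridized to 1 Affymetrix array each. The deposited values are log2 intensities of 52865 probesets that the authors background-corrected, normalized and summarized by RMA (R package affy, versions not given in the sources used here), without batch adjustment. Samples were grouped by the labels' cohort and treatment. Probesets with a gene symbol (25317) were kept unless under 3.5 on at least 80% of arrays, which left 24151. Treatment was tested with limma 3.58.1 in R 4.3.3, with cohort as a block for the main comparison and 7 group means for the cohort contrasts, and Benjamini-Hochberg adjustment over all probesets. The scripts were tested on simulated data. The 8 processing batches were recovered from arrays that the study's own batch adjustment shifted together, and integrity numbers came from the study's supplement. Each array is 1 animal, so p-values rest on the spread between animals. In limma that spread was pooled over all 43 arrays, also for the contrast of a single cohort. The p-values of cohort 7b therefore rest mostly on the spread within other cohorts. The number of animals, down to 2 controls in cohort 7b, limits the precision.

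The members and lists were chosen with earlier results of these data known. Named genes were a core list of members, the 10 largest rises and 10 largest falls among members called with 1 sign in cohorts 5, 7a and 7b, and the 5 smallest p-values for the difference between cohorts. Alternatives were the block, covariates, cohorts or single animals left out, filters, the second probeset, moderation, array centring and a threshold of 0.01.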

Additional observations from a re-analysis of the deposited data

Results flagged for a closer look

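For 12 of the 27 named and measured members the treatment effect in cohorts 7a and 7b differed from that in cohort 5 (interaction contrast in limma, adjusted over all probesets tested). The effect was more positive in cohorts 7a and 7b for CAMK2B (0.75, adjusted p = 1.62e-09), AKAP17A (0.6, adjusted p = 0.000159), PDE4C (0.42, adjusted p = 0.00734), PDE4A and PRKAR1B (each 0.33, adjusted p = 0.000771 and 0.0261), AKAP8L (0.32, adjusted p = 0.0146), CALM3 (0.25, adjusted p = 0.00264) and AKAP8 (0.24, adjusted p = 0.0166). It was more negative for PDE6A (-0.53, adjusted p = 0.00551), PDE6D (-0.5, adjusted p = 7.06e-06), AKAP5 (-0.46, adjusted p = 0.0443) and CAMK2N2 (-0.39, adjusted p = 0.000121). The named members were chosen in part by this same test and by their treatment calls, so the 12 of 27 does not measure the set. Among all 70 members tested 19 passed, 27.1% beside 31.6% of all probesets.

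The highest or lowest array was set apart by a gap to its nearest neighbour, divided by the range of the group, above the limit of Dixon's test in 7 of 135 checks of a gene in a group of 4 to 10 animals. Chance passes that limit in about 1 in 20 groups. Control 12 of cohort 5 was low in CALM3 (10.36, others 10.49 to 10.53), and control 14 was high in PDE7A (8.75, others 8.26 to 8.36). In cohort 7a, control 27 was low in CAMK2A (7.86, the others all 8.09) and high in CAMK2D (11.15, others 10.94 to 10.95). Control 26 was high in CAMK2G (11.24, others 11.14 to 11.16), and control 25 was high in PRKACA (6.08, others 5.66 to 5.7). Drinker 41 of cohort 7b was low in CAMK2N2 (6.64, others 6.88 to 6.91).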

How the results depend on the processing

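Against 13 members higher and 8 lower, and 15 and 11 partners, the counts fell as follows. Without a block 3 and 3 members and 8 and 3 partners were called, and with the processing batch as a block 5 members and 5 partners were lower. With cohort and integrity number the counts were 3 and 2 members and 3 and 0 partners, and with batch and integrity number 0 and 0 members and 2 and 0 partners. With the actin value 3 members and 4 partners were lower. Without cohort 7b they were 6 and 5 members and 9 and 1 partners, and without cohort 7a 6 and 3 members and 7 and 2 partners. Leaving out cohort 4 gave 7 lower partners, and centring the arrays also gave 7, as it raised the median difference of all probesets by 0.04. Second probesets gave 8 higher members, and a threshold of 0.01 gave 8 and 5 members and 6 lower partners. Within cohorts 7a and 7b, batch and integrity number, added after seeing the data, gave 7 and 3 members and 6 and 3 partners.

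In cohort 7a, 14 members were called when its arrays were fitted alone and 12 with the actin value, instead of 22. In cohort 7b, 19 members (27.1%, beside 27.4% of all probesets) were called when its arrays were fitted alone and 25 with the actin value, instead of 27. For the difference between cohorts, 12 members were called with the integrity number, added after seeing the data, instead of 19. Leaving out single animals gave 10 to 14 members higher and 6 to 11 lower, and 12 to 15 partners higher and 6 to 11 lower, the 6 without control 37 of cohort 7b. It gave 0 to 0 members in cohort 5, 18 to 22 in cohort 7a, 18 to 29 in cohort 7b and 15 to 22 for the difference between cohorts.

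The direction turned without a block for PRKAR1B (-0.02), and with the second probeset for ADCY9 (-0.08), CALM3 (0), PDE4C (-0.04) and PRKAR1A (-0.35, called lower). The cause was not tested. Members not called in either fit also changed sign, among them, without a block, CAMK2A (0.09 to -0.14), PDE10A (-0.03 to 0.11) and PRKAR1A (0.11 to -0.01), and ADCY1 with cohort and integrity number (0.06 to -0.02). Of 232 values for the 18 named and called members under other settings, 146 kept direction and call, 82 kept direction alone and 4 turned. No paired analysis was made, because the labels do not say which control was matched to which drinker. By the study's methods, controls were matched by age in each cohort, and their calories were matched to those of a drinker. The 2 controls of cohort 7b and the brightness of the dim probesets limit what can be told apart.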

Other observations

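The levels of the members also differed between cohorts 7a and 7b and cohorts 4 and 5, which were processed apart. Among drinkers, the mean of cohorts 7a and 7b minus that of cohorts 4 and 5 had a median absolute size of 0.29 (log2) over the 70 members, beside 0.19 over all probesets. It exceeded 1 in size for 7 members (10%), beside 1011 of 24151 probesets (4.19%). These members were chosen after their values were seen. CAMK2A (1.55), the kinase C gene PRKCI (1.36), PRKAR1B (1.34), PDE1A (1.33), CAMK1 (1.23) and CAMK2B (1.04) were higher in cohorts 7a and 7b, and PDE8A, a phosphodiesterase for cyclic AMP, was lower (-1.03). Cohort and processing cannot be told apart in these values.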
